A study of Mus musculus with 2 samples.

Results

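The genes described here encode the proteins of the cytosolic ribosome. They were 82 of the 27998 genes listed in the deposited tables, and they were chosen by symbol alone: Rpl or Rps followed by a number and, where present, the letters a, l, x or y, together with Rplp0, Rplp1, Rplp2 and Rpsa. Symbols ending in -ps with a number, which name processed copies, were left out. Of these member genes, 51 encode proteins of the large subunit and 31 proteins of the small subunit, counting Rpsa with the latter. Rps3a1, Fau and Gnb2l1 also encode ribosomal components but carry other symbols, and they are given beside the members.

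Single cells of the retinal pigment epithelium (RPE), the pigmented layer that supports the photoreceptors, were profiled from 2 male C57BL/6J mice, R1 and R2. Both animals were in the same untreated state, with an age of 4 to 5 weeks in the sample labels and postnatal day 36 in the protocol. After trypsin, RPE sheets from the left and right eye were pooled, and cells that were calcein-AM positive and DAPI negative were sorted before droplet capture. The deposited values are counts of unique molecular identifiers (UMIs), each standing for 1 captured transcript molecule. The replicate is the mouse (n = 2), and every test compares cells within the same mouse. Differences between R1 and R2 are described without a test. R1 held 2844 cells and R2 2994, of which 2670 and 2847 were kept after filters on genes, mitochondrial UMIs and doublets, and 12 cell barcodes occurred in both mice.

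Kept cells fell into groups by Ttr, which encodes transthyretin, a secreted carrier of thyroid hormone and of the retinol-binding protein that the RPE makes in large amounts. Ttr took at least 5% of UMIs in 2612 cells of R1 and 2828 of R2, and below 3% in 58 and 19 cells. No kept cell lay between these limits, with a highest share of 2.66% on the low side and a lowest of 5.14% on the high side. All high-Ttr cells had at least 3 of 8 RPE genes (Rpe65, Rlbp1, Rgr, Lrat, Best1, Rdh5, Rrh and Ermn), whose summed level was 398.5 UMIs per 10000 in R1 and 448.4 in R2. In low-Ttr cells this level was 35.0 and 23.6 per 10000, 48 of 58 and 13 of 19 cells had at least 3 of the 8 genes, and Best1 was at 0 in both mice. The RPE label was thus matched by its markers in the high-Ttr cells and only weakly in the low-Ttr cells.

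Ribosomes are assembled in the nucleolus from ribosomal RNA and a single copy of nearly every ribosomal protein, with the acidic stalk proteins as the best known exception. Many vertebrate messenger RNAs for these proteins begin with a C followed by a run of pyrimidines, the 5′ terminal oligopyrimidine (TOP) tract, through which growth signalling by the mTOR kinase controls how strongly they are translated. Ribosomal protein genes are also the richest source of processed pseudogenes in mammalian genomes, because their short and abundant messengers were often copied back into DNA. Both features, the 5′ start and the copies, were therefore looked up for the members.

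An unbroken run of C and T, counted from its first C, of at least 7 bases and with that first C within 10 bases of the annotated transcription start, was found in 25 of the 61 members with a RefSeq promoter (GRCm38.p6), or 40.98%. By the same rule, also read on the strand of the gene, it was present in 12.87% of all 27025 genes with a promoter. A gene counted if any of its listed promoters had such a run. When any C of a run could be the one near the start, so that runs beginning further upstream counted too, the shares were 47.54% (29 members) and 14.14%. Shown are the members that were called different between low- and high-Ttr cells and have a promoter entry, 3 of the most abundant members, a member that was nearly undetected, and the pair Rps27 and Rps27l. Each window runs from 10 bases before to 20 bases after the start, 5′ to 3′ on the strand of the gene, and capitals mark a run whose first C lies near the start. Rps27l has no capitals because its window opens inside a run that begins further upstream.
Rplp0 (chr5:115559457-115559486, plus strand): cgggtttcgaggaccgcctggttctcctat
Rps4x (chrX:102189372-102189401, minus strand): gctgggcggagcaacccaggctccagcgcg
Rps19 (chr7:24884903-24884932, plus strand): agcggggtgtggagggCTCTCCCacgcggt
Rpl14 (chr9:120571507-120571536, plus strand): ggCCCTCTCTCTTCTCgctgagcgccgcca
Rpl41 (chr10:128549149-128549178, minus strand): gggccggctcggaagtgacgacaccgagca
Rpl13a (chr7:45128726-45128755, minus strand): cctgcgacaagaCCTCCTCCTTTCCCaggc
Rps9 (chr7:3704031-3704060, plus strand): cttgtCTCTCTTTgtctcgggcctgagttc
Rps12 (chr10:23787190-23787219, minus strand): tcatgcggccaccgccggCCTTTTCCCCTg
Rps27 (chr3:90213629-90213658, minus strand): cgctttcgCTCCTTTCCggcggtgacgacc
Rps27l (chr9:66946076-66946105, plus strand): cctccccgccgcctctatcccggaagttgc

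In high-Ttr cells the members together took 1.56% of UMIs in R1 (exact 95% interval of the sum 1.55 to 1.56, counting error only) and 1.45% in R2 (1.45 to 1.46). Per cell, the median share was 1.54% in R1 with quartiles of 1.35 and 1.74, and 1.43% in R2 with quartiles of 1.27 and 1.59. The lowest and highest cells stood at 0.377% and 3.64% in R1 and at 0.389% and 2.71% in R2. The spread between cells (SD 0.305 percentage points in R1 and 0.252 in R2) was 2.01 and 1.65 times that which counting UMIs alone would give, so cells differed by more than counting error in both mice. Large-subunit genes took 0.867% and small-subunit genes 0.692% of UMIs in R1, against 0.770% and 0.684% in R2. The ratio of large to small was therefore 1.25 in R1 and 1.13 in R2. These sums hold only the UMIs assigned to members, and 30 members lay at or below 0.1 UMIs per 10000, as described below. Across high-Ttr cells the shares of the subunits were positively related, with a Spearman correlation of 0.454 over 2612 cells of R1 and 0.276 over 2828 cells of R2. These cells share a library and a mouse, and both shares have the same total as denominator.

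The level of single members spread widely. Because each UMI tags the 3′ end of 1 molecule, counts were not divided by transcript length. Of the 82 members, 36 lay over 1 UMI per 10000 in high-Ttr cells (mean of both mice), 16 between 0.1 and 1, and 30 at or below 0.1, with a median of 0.472. The 6 most abundant members held 34.8% of all member UMIs and the 10 most abundant held 47.1%. The order of the members was close to the same in both mice (Spearman 0.992 over the 82 genes, a description across genes that are not independent).

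Rpl41, the smallest protein of the ribosome, had the highest level, 18.2 UMIs per 10000 in R1 and 10.8 in R2. Rps14, a small-subunit protein at the platform of the subunit, stood at 11.0 and 12.7 per 10000. With means of 14.5 ± 5.24 and 11.8 ± 1.18 (SD, n = 2 mice), these 2 did not differ beyond their spread, and their order was reversed between the mice. Rpl13a, a large-subunit protein, followed at 8.09 and 8.66 per 10000. Rpl37a (5.94 ± 0.836), Rps3 (5.92 ± 0.125) and Rps9 (5.83 ± 0.286) came next and did not differ beyond their spread. Rps3 lines the messenger RNA entry channel of the small subunit and Rps9 lies close to it.

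The ribosomal stalk, which recruits translation factors, is built on Rplp0 with copies of Rplp1 and Rplp2. In high-Ttr cells, Rplp1 was at 4.13 UMIs per 10000 in R1 and 4.16 in R2. Rplp0 was at 2.82 and 2.79, and Rplp2 at 2.36 and 2.39. The mice thus differed little for the stalk genes, and Rplp1 was the highest of the 3 in both. Rpsa, a small-subunit protein that is also known as the laminin receptor precursor, was at 0.423 per 10000 in R1 and 0.229 in R2.

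Several members have a paralog, and the deposited counts lay mostly on 1 gene of each pair. Rps27l, a close relative of Rps27 known as a p53 target, was at 2.69 UMIs per 10000 in R1 and 2.92 in R2, whereas Rps27 was at 0.0523 and 0.0577. Rpl36al, an autosomal relative of X-linked Rpl36a, was at 1.04 and 0.788 per 10000, with Rpl36a at 0.00788 and 0.00735. Rpl39 was at 0.883 and 0.733 per 10000, and its relative Rpl39l, known from testis, had 10 UMIs in R1 and 0 in R2. Rpl3l, the striated-muscle form of Rpl3, had 3 and 8 UMIs, and Rpl10l, a testis form of Rpl10, 1 and 3 UMIs. Rpl3 itself was at 0.0913 and 0.0452 per 10000 and Rpl10 at 0.0228 and 0.0246, so these pairs were low on both sides. X-linked Rps4x was at 0.788 and 0.787 per 10000. Rpl22, whose relative Rpl22l1 stood at 0.375 and 0.396, was at 1.18 and 1.20.

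Low levels went along with sequence that is not unique. For 81 members with a protein-coding transcript in GENCODE M21 (GRCm38, not the annotation release behind the counts), the last 300 transcript bases were cut into 50-base words, and the share of words found in transcripts of any other gene was computed. Among the 30 members with at least 75% of words shared, 18 lay at or below 0.1 UMIs per 10000 and 7 over 1, with a median of 0.0399. Among the 26 with 25 to 75% shared, 6 lay at or below 0.1 and 16 over 1, and the median was 2.34. Among the 25 with less than 25% shared, 5 lay at or below 0.1 and 13 over 1, and the median was 1.19. Across the 81 members the Spearman correlation of level and shared words was -0.386, and -0.438 with 90-base words.

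**Figure D1:**
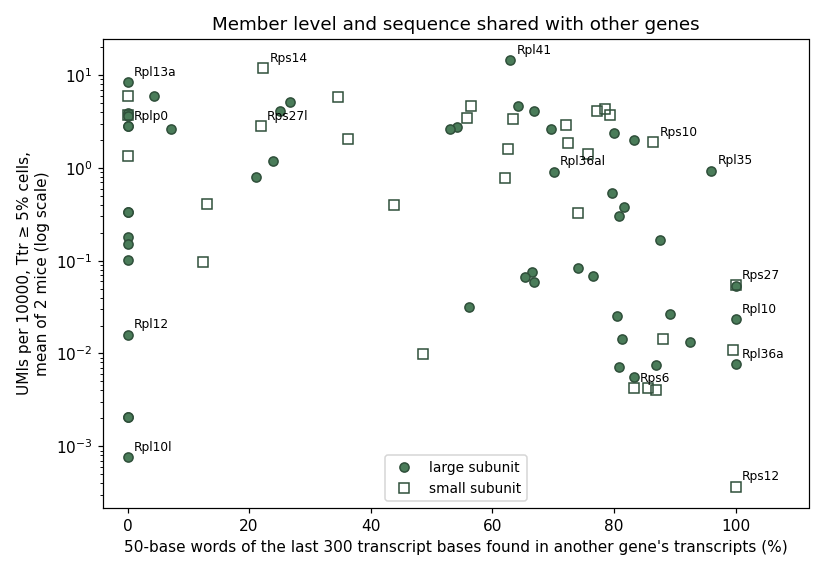
Each symbol is a member, with the share of 50-base words of its last 300 transcript bases found in another gene's transcripts on the x axis (%) and its mean level over both mice in high-Ttr cells on a logarithmic y axis (UMIs per 10000). Members at the bottom right have at least 75% of words shared, and Rps12 and Rpl10 among them have all words shared. Rpl35 and Rps10 are labelled exceptions near 1 and 2 per 10000, and Rpl12 is low with no shared word. Unlabelled members with at least 75% of words shared reach up to 4.31 per 10000 (Rps18).

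The member with the fewest UMIs was Rps12, a small-subunit protein, with 0 UMIs in high-Ttr cells of R1 and 2 in R2. All of its words were shared, with transcripts of 23 other genes. The same held for Rps27, whose closest match was the retrogene Rps27rt, for Rpl10 and for Rpl36a, each with 100% of words shared. Rps6, the best known substrate of the S6 kinases, had 10 and 12 UMIs and shared 83.3% of its words with transcripts of 11 genes, and Rps27a, made as a fusion with ubiquitin, had 8 and 13 UMIs and shared 86.9%. There were exceptions in both directions. Rpl35 (96.0% shared) reached 1.09 and 0.790 UMIs per 10000, and Rps10 (86.5% shared) reached 1.90 in both mice. Rpl12 shared no word and had 39 and 43 UMIs. Reads that match several genes equally well are commonly left out by this kind of counting, and the part of this in the levels was not tested. Levels of members with shared words, and of Fau beside them (83.3% shared, 39 and 50 UMIs), are therefore uncertain. The same holds for the summed share and the ratio of large to small, beyond their counting error.

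R1 and R2 differed for some members by more than for most genes. In high-Ttr cells, 60 members had at least 100 UMIs in both mice, and 8 of them (13.3%) were more than 1.5-fold higher in R1, against 252 of 8789 genes (2.87%) at the same minimum. None was more than 1.5-fold higher in R2, where 35 genes (0.398%) passed. These 8, named after their values were seen, were Rpl41, Rpl13, Rps28, Rpsa, Rpl11, Rpl3, Rpl38 and Rpl19. The ratio of R1 to R2 was 2.16 for Rps28 (1.95 and 0.903 UMIs per 10000), 1.69 for Rpl41 and 1.62 for Rpl13. In low-Ttr cells these 3 were again higher in R1, with 5.42 against 1.76 for Rps28, 29.5 against 14.5 for Rpl41 and 7.89 against 4.28 for Rpl13. The others did not all repeat there, and Rpsa was at 1.21 in both mice. Rpl11 (0.158 and 0.329) and Rpl19 (0.0526 and 0.110) were higher in R2, and Rpl3 and Rpl38 (each 0.105 and 0) in R1. Rpl11, Rpl19, Rpl3 and Rpl38 had at most 3 UMIs in low-Ttr cells of either mouse. With 1 library per mouse, animal and library cannot be told apart.

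The summed share changed little with sequencing depth, the number of UMIs in a cell. High-Ttr cells of each mouse were ordered by depth and divided into 4 equal bins. In R1, median shares from the shallowest to the deepest bin were 1.52%, 1.51%, 1.53% and 1.58%, while the median depth went from 3780 to 15492 UMIs. In R2 they were 1.38%, 1.39%, 1.44% and 1.48%, while the median depth went from 3251 to 18049 UMIs. The Spearman correlation of share and depth was 0.0811 over 2612 cells of R1 and 0.137 over 2828 cells of R2. What fell with depth was the spread, from an SD of 0.390 to 0.236 percentage points in R1 and from 0.287 to 0.196 in R2, although the ratio to the counting spread rose from 1.87 to 2.36 and from 1.39 to 2.20. Mitochondrial UMIs moved with depth in R1 (median 2.34% in the shallowest and 0.951% in the deepest bin) and less in R2 (1.32% and 1.05%). The correlation of member share with mitochondrial share was -0.184 in R1 and -0.0850 in R2, and with Ttr share -0.00964 and -0.0865. The part of mitochondrial share in the small drift was not tested.

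**Figure D2:**
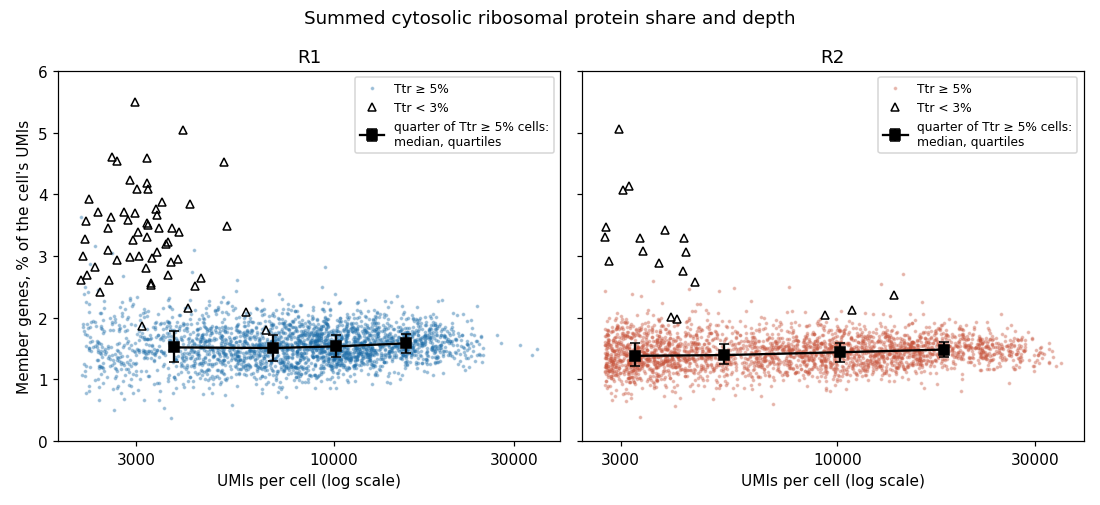
Points are high-Ttr cells and open triangles low-Ttr cells of each mouse, with UMIs per cell on a logarithmic x axis and the summed member share (% of UMIs) on the y axis. Black squares with bars are the median and quartiles of each of 4 depth bins of high-Ttr cells, which stay between 1.38% and 1.58%, while most low-Ttr cells lie above them at equal depth.

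No single member was called between the deepest and the shallowest bin. UMIs were summed over the cells of each bin and mouse, and edgeR's quasi-likelihood test compared the 4 sums with the mouse as a block. The p-values were adjusted by Benjamini-Hochberg over 10621 genes. Of the 66 members tested, 0 had an adjusted p under 0.05, beside 0.33% of all genes (35, all lower in the deepest bin). At an unadjusted p under 0.05 there were 4 members and 659 genes (6.2%) by edgeR, and 1 member and 145 genes (1.37%) by DESeq2, which also called 0 members. The median member log2 fold change was 0.03, against 0.01 over all genes. The 4 members, named after their values were seen, were Rpl8, Rpl15, Rpl7 and Rps4x. Rpl8 had the smallest unadjusted p by edgeR and also the smallest fold change of the 4. It went from 3.20 to 4.11 UMIs per 10000 in R1 and from 3.53 to 4.73 in R2 (log2 fold change 0.38 ± 0.14 SE, edgeR adjusted p = 0.636). Rpl41 (0.05 ± 0.13 SE) and Rpl13a (0.04 ± 0.14 SE) were within 1 SE of 0.

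The members took a larger part of the UMIs in low-Ttr cells. Their summed share was 3.30% in R1 (exact 95% interval 3.22 to 3.38, counting error only) and 2.79% in R2 (2.68 to 2.89), against 1.56% and 1.45% in high-Ttr cells. This is a difference of 1.74 and 1.33 percentage points, and a ratio of 2.12 and 1.92. Per cell, the median was 3.35% in R1 (quartiles 2.84 and 3.71, range 1.80 to 5.49) and 3.06% in R2 (quartiles 2.47 and 3.36, range 1.97 to 5.05). In R1, 56 of 58 low-Ttr cells lay above the 95th percentile of high-Ttr cells, and in R2 all 19 did. The highest high-Ttr cell was exceeded by 18 cells of R1 and 13 of R2, so the groups overlapped in their tails. With 2 pairs of values the smallest two-sided exact permutation p is 0.5, so the permutation test cannot pass a threshold here, and no other test of the share was run.

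**Figure D3:**
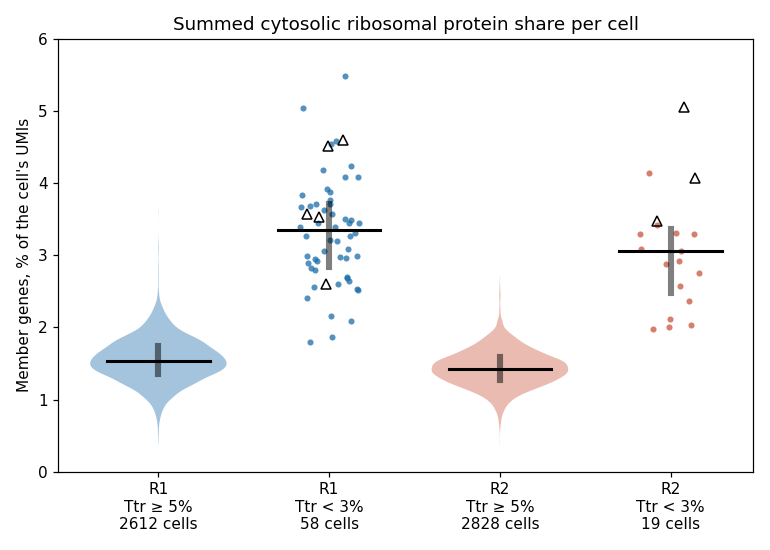
The summed member share (% of the cell's UMIs, y axis) is shown for high-Ttr cells as a violin and for low-Ttr cells as points, separately for R1 and R2. Black lines are medians, grey bars the quartiles, and open triangles low-Ttr cells with at least 3 markers of another cell type. Both low-Ttr groups have medians above 3%, and both high-Ttr groups have medians near 1.5%.

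The higher share stood beside a lower total. Low-Ttr cells had a median depth of 3202 (R1) and 3836 UMIs (R2), and high-Ttr cells one of 8514 and 7687. The median number of member UMIs per cell was 106.5 against 130 in R1 and 117 against 108 in R2, so in member UMIs per cell the groups were much closer, and in opposite order in the mice. Against high-Ttr cells limited to the interquartile range of depths of low-Ttr cells, the difference in share was 1.77 points in R1 and 1.39 in R2. With Ttr left out of all totals it was 1.57 and 1.13 points. With the 20 most abundant genes left out, an alternative chosen after seeing the data, it was 1.34 and 0.893. Low-Ttr cells also had more mitochondrial UMIs, with a median of 2.58% against 1.28% in R1 and 3.35% against 1.26% in R2. Among high-Ttr cells a higher mitochondrial share went with a slightly lower member share, as given above, and the part of RNA quality in the difference was not tested.

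Most low-Ttr cells carried Pax6, a transcription factor of eye development, or Dkk3, a secreted Wnt-pathway modulator. They numbered 54 of 58 in R1 and 16 of 19 in R2, and without those carrying markers of another type, 53 and 16 cells had a summed member share of 3.25% and 2.63%. Cells with at least 3 fibroblast or microglia and macrophage markers numbered 5 in R1 (3 and 2) and 3 in R2 (2 and 1). Their summed share was higher still, 3.87% in R1 and 4.22% in R2, from 16288 and 8772 UMIs in all. The fibroblast list (6 genes, such as Col1a1 and Dcn) ranged per cell from 0 to 774.9 UMIs per 10000 in low-Ttr cells of R1 and to 397.8 in R2, with a median of 0. In high-Ttr cells it reached 3.44 and 168.6, also with a median of 0. The microglia or macrophage list (8 genes) reached 386.7 and 394.2 in low-Ttr cells, and all of its and the fibroblast genes were detected there. All 8 rod genes were at 0 in low-Ttr cells of both mice. No low-Ttr cell had 3 markers of the endothelium, pericyte, melanocyte, cone or Muller glia lists. The Muller glia list (6 genes) was nevertheless higher in low-Ttr cells, with a summed level of 20.2 against 11.8 UMIs per 10000 in R1 and 36.1 against 11.3 in R2. At least 1 of its genes was found in 55 of 58 and 18 of 19 low-Ttr cells, and in 2561 of 2612 and 2746 of 2828 high-Ttr cells. Kcnj10 and Crym were at 0 in low-Ttr cells of both mice. Dissociation response genes (8 genes) stood at 4.10 against 2.19 per 10000 in R1 and 13.7 against 5.27 in R2. The excess lay in the 5 and 3 cells marked as another type, where these genes took 0.258% and 1.31% of UMIs. In the other 53 and 16 low-Ttr cells they took 0.0207% and 0.0121%, against 0.0219% and 0.0527% in high-Ttr cells. The part of these lists in the higher member share was not tested. Without the 5 and 3 cells the difference in share was 1.69 points in R1 and 1.18 in R2.

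Nearly all well-measured members took a higher share in low-Ttr cells, but to different degrees. Among the 36 members over 1 UMI per 10000, the ratio of low- to high-Ttr cells was above 1 for all 36 in R1 and for 35 in R2, with medians of 2.06 and 1.88. The ratios ran from 1.20 to 4.76 in R1 and from 0.965 to 3.19 in R2. For 33 of them the exact 95% counting interval of the ratio lay above 1 in both mice. The same count over all genes is not given here. These intervals cover counting error only. In low-Ttr cells the summed share varied between cells by 2.35 (R1) and 3.06 (R2) times the counting spread. The summed share of small-subunit genes had a ratio of 2.17 in R1 and 2.04 in R2, and that of large-subunit genes 2.08 and 1.80. Without rescaling, the edgeR log2 fold change was also above 0 for 6946 of all 11496 genes tested. At a mean of at least 0.5 UMIs per 10000 in high-Ttr cells, these were 1357 of 2381 genes and 41 of 41 members. That limit was chosen after seeing the data. These ratios are shares of a total whose composition differs, and the test below rescales for that.

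**Figure D4:**
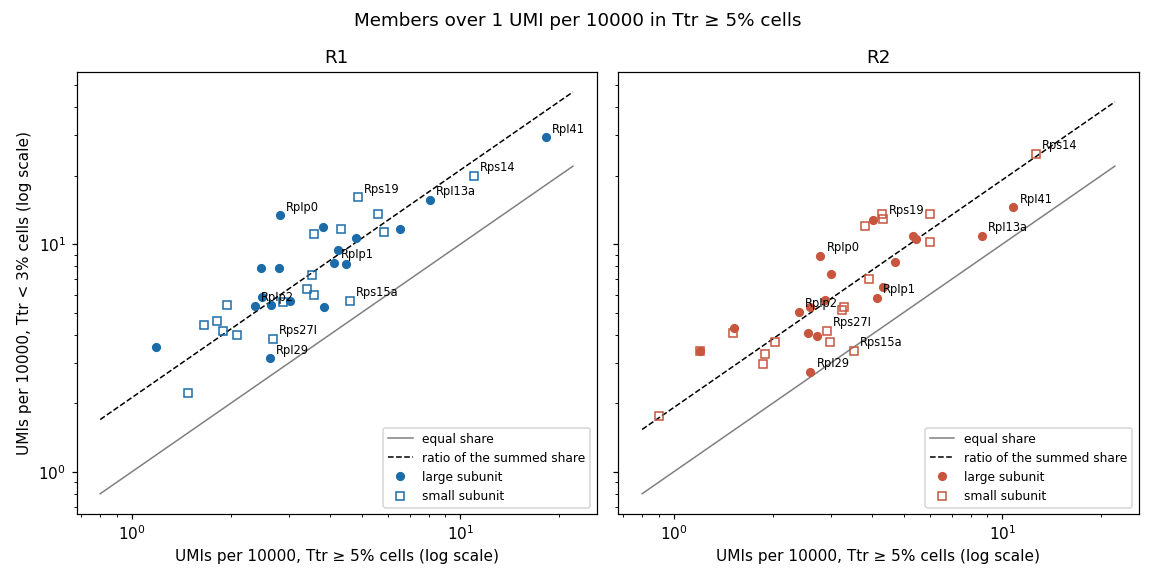
Each symbol is a member over 1 UMI per 10000, with its level in high-Ttr cells on the x axis and in low-Ttr cells on the y axis (UMIs per 10000, both logarithmic), for R1 and R2. The solid line marks equal levels and the dashed line the ratio of the summed share, 2.12 and 1.92. Rplp0 and Rps19 lie above the dashed line in both mice, and Rps15a and Rpl29 lie near the solid line.

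Summed UMIs of low- and high-Ttr cells, paired within each mouse, were compared with edgeR's quasi-likelihood test after TMM scaling, which sets library factors from the bulk of genes. Of the 71 members tested, 5 were called higher at an adjusted p under 0.05, beside 4.19% of all 11496 genes, and 0 were called lower by edgeR, beside 6.79%. At an unadjusted p under 0.05, in either direction, there were 10 of the 71 members, beside 19.8% of all genes. DESeq2 called 3 members higher and 0 lower, beside 4.33% and 3.73% of all genes. As shares of the 71 members, the counts at an unadjusted p and by DESeq2 were near or below those of all genes. The median member log2 fold change was 0.15, against -0.39 over all genes tested. Among genes with a mean of at least 0.5 UMIs per 10000 in high-Ttr cells, a limit chosen after seeing the data, it was 0.18 for 41 members and -0.61 for 2381 genes. With the 3 tested members that had no UMI in low-Ttr cells set to 3 counts over the group, the median over the 71 was 0.21. This is an upper bound, since 3 is the most that a count of 0 was taken to allow. The members passed a filter on low counts, so these medians leave out 11 members that were too low to test.

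The number of calls depended on the scaling. TMM gives each sum a single factor, so leaving it out moves all genes by nearly the same amount, and the median of all genes went from -0.39 to 0.37. Without TMM, 32 members were called higher and 0 lower by edgeR, beside 9.13% of all genes called higher, and the median over members was 0.92. The distance of the members from the median of all genes, 0.54 with TMM and 0.55 without, is kept by this construction. The split of all calls moved from 482 higher and 781 lower with TMM (38.2% higher) to 1050 and 381 without (73.4%), and was 498 and 429 with DESeq2 (53.7%). Against high-Ttr cells of matched depth, 49 members and 4832 genes could be tested, 9 members were called higher, beside 10.3% of all genes, and the medians were 0.50 and -0.02.

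The members called higher came from both subunits, and 4 of the 5 are described here. Rplp0, the base of the stalk, rose from 2.82 to 13.4 UMIs per 10000 in R1 and from 2.79 to 8.89 in R2. Its ratio was 4.76 in R1 (exact 95% counting interval 4.19 to 5.40) and 3.19 in R2 (2.53 to 3.97), with a log2 fold change of 1.20 ± 0.31 SE and an edgeR adjusted p of 0.00138. It stood above its high-Ttr level in both mice by more than the mice differed from each other, and it lies on chromosome 5 (GRCm38, 115559467 to 115563727).

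Rps4x, the X-linked small-subunit protein, went from 0.788 to 3.68 UMIs per 10000 in R1 and from 0.787 to 2.09 in R2 (log2 fold change 1.11 ± 0.38 SE, edgeR adjusted p = 0.0327). Rps19, the small-subunit protein most often mutated in Diamond-Blackfan anemia, went from 4.87 to 16.0 and from 4.32 to 13.0 (0.88 ± 0.30 SE, edgeR adjusted p = 0.0334). Rpl14, a large-subunit protein, went from 3.81 to 11.8 and from 4.03 to 12.7 (0.87 ± 0.30 SE, edgeR adjusted p = 0.0353). Over both mice, these 4 stood at 2.65 to 4.76 times their high-Ttr level, and Rplp0 and Rpl14 share no 50-base word with another gene. Without the low-Ttr cells marked as another type, 2 calls were left, beside 3.11% of all genes, namely Rplp0 (edgeR adjusted p = 0.0069) and Rpl14 (edgeR adjusted p = 0.0393), with Rps4x at 0.0522 and Rps19 at 0.0691. After subtraction of 10% ambient RNA, Rplp0 alone was called (edgeR adjusted p = 0.0218), beside 4.1% of all genes, with Rps4x at 0.106, Rps19 at 0.152 and Rpl14 at 0.151. The 10% was set, not measured, and its profile was that of all kept cells of the mouse, nearly all high-Ttr. Low-Ttr cells held a median of 0.617% and 0.391% Ttr, against 11.3% and 13.0% in high-Ttr cells. For Ttr, the subtraction thus removed more than low-Ttr cells held, and the part of ambient RNA in the calls was not tested. Rps4x, Rps19 and Rpl14 also lost their call with no filter on low counts, and DESeq2 did not call Rps4x (DESeq2 adjusted p = 0.111).

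**Figure D5:**
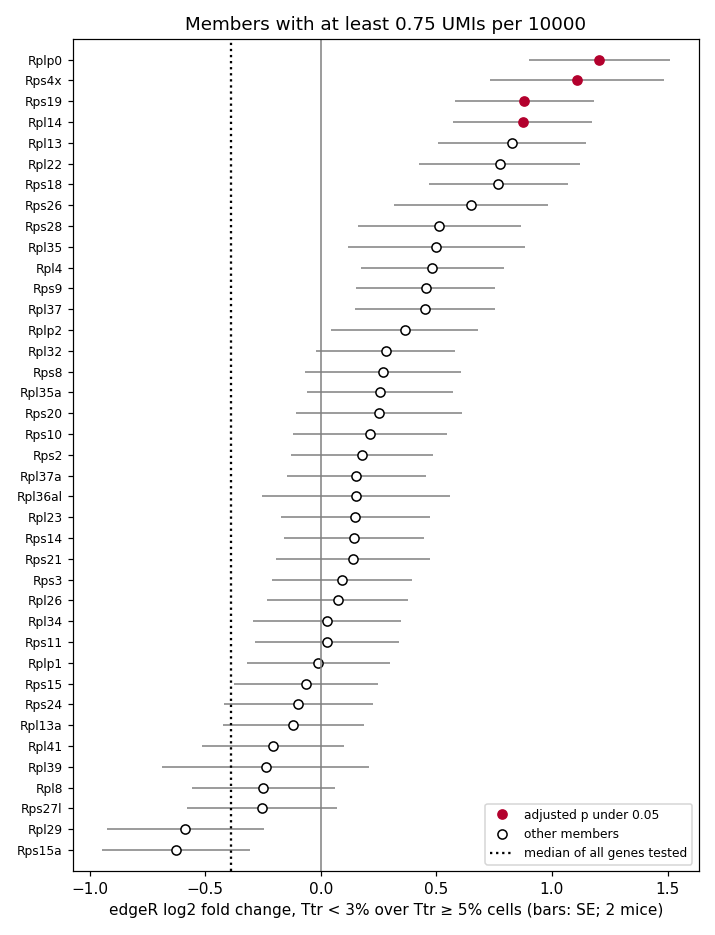
Points are edgeR log2 fold changes of low-Ttr over high-Ttr cells after TMM scaling, with bars of 1 SE, for members with a mean of at least 0.75 UMIs per 10000 in high-Ttr cells of the 2 mice. Filled points are the 4 called members described in the text, a member whose results are not reported here is left out, and the dotted line is the median of all genes tested, -0.39. Most members lie right of the dotted line, with Rps15a and Rpl29 left of it.

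The other stalk genes were not called. Rplp1 was at 8.26 UMIs per 10000 in low-Ttr cells of R1 and 5.82 in R2, a ratio of 2.00 and 1.40 (log2 fold change -0.01 ± 0.31 SE, edgeR adjusted p = 0.991; 0.76 and called without TMM). Rplp2 was at 5.36 and 5.05, a ratio of 2.27 and 2.11 (0.36 ± 0.32 SE, edgeR adjusted p = 0.633). In low-Ttr cells Rplp0 was thus the highest stalk gene in both mice, whereas Rplp1 was the highest in high-Ttr cells. The difference between the stalk genes was not tested by itself.

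The most abundant members did not pass the test either. Rpl41 had 29.5 UMIs per 10000 in low-Ttr cells of R1 and 14.5 in R2, a ratio of 1.62 and 1.34. Rps14 had 20.0 and 24.9, a ratio of 1.82 and 1.97, and Rpl13a 15.7 and 10.9, a ratio of 1.94 and 1.25. After TMM their log2 fold changes were -0.21 ± 0.31, 0.14 ± 0.30 and -0.12 ± 0.30 SE. Without TMM, Rpl13a turned to 0.66 and was among the 32 members called. Over the alternative settings, Rps14 also gained a call under 1, and Rpl41 was not called under any of the 15. Its log2 fold change nevertheless turned positive without TMM. Rpsa, at 1.21 UMIs per 10000 in both mice in low-Ttr cells, had a ratio of 2.86 and 5.27 from 23 and 11 UMIs (log2 fold change 1.14 ± 0.52 SE, edgeR adjusted p = 0.174). Rpl22 had a ratio of 2.98 and 2.83 (0.77 ± 0.35 SE, edgeR adjusted p = 0.16), and Rps27l 1.43 in both mice (-0.26 ± 0.32 SE). Beside the members, Rps3a1 went from 1.43 to 4.26 and from 1.53 to 4.83 (0.85 ± 0.33 SE, edgeR adjusted p = 0.0820).

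To ask how single members moved relative to the group, the sums were also scaled to the summed member UMIs, a choice made after seeing the data. On this scale 4 members were called higher, beside 3.69% of all genes, and 2 lower, beside 10.8%. Among those higher were Rplp0 (log2 fold change 0.96), Rps19 (0.64) and Rpl14 (0.63). Those lower, named after their values were seen, were Rps15a (-0.88, edgeR adjusted p = 0.00688) and Rpl29 (-0.84, edgeR adjusted p = 0.0309), with 77.3% and 69.7% of their words shared with other genes. Among the 27 members over 1 UMI per 10000 with a promoter entry, 12 had a pyrimidine run near the annotated start. Their median log2 fold change was 0.31 after TMM, and that of the 15 without was 0.15. Both Rpl14, with a run of 14 bases, and Rplp0, with none in the window, were called. The starts used in these cells were not measured, so this is not a split into members with and without a TOP tract.

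The related gene lists had smaller ratios of share than the members. Mitochondrial ribosomal proteins, 77 genes whose products work in the separate ribosome of that organelle, took 0.713% of UMIs in high-Ttr and 0.974% in low-Ttr cells of R1, and 0.731% and 0.945% in R2, a ratio of 1.37 and 1.29. Of the 74 tested after TMM, 1 was called higher (Mrpl19) and 4 lower (Mrps7, Mrpl36, Mrpl20 and Mrps6), beside 4.19% and 6.79% of all genes, with a median log2 fold change of -0.24. The share of Mrps6 went in opposite directions in the mice. It fell from 3.11 to 1.16 UMIs per 10000 in R1 and rose from 3.25 to 4.61 in R2. The list of translation factors and other messengers known to start with a TOP tract, 18 genes, had a ratio of 1.57 and 1.43. After TMM, 0 of 18 were called by edgeR, with 0 at an unadjusted p under 0.05 and a median of -0.09. DESeq2 also called 0. Eef1a1, the elongation factor that delivers transfer RNA, went from 9.45 to 13.0 UMIs per 10000 in R1 and from 8.84 to 11.0 in R2. Its log2 fold change after TMM was -0.38 ± 0.30 SE (edgeR adjusted p = 0.58). Scaled to the summed members, it was -0.62 and called lower (edgeR adjusted p = 0.0294), beside 10.8% of all genes. Ribosome biogenesis genes, 25 in number, had a ratio of 1.69 and 1.78, with 0 of 24 called by edgeR, 0 at an unadjusted p under 0.05, 0 called by DESeq2 and a median of -0.47. The sign of that median depended on level, since it was 0.35 over the 7 of these genes with a mean of at least 0.5 UMIs per 10000 over the 4 sums, and -0.18 over the 4 with such a mean in high-Ttr cells alone.

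Of 13 regulators of ribosomal protein synthesis, 11 were tested, 1 was called higher and 1 lower, beside the same 4.19% and 6.79% of all genes. Mtor, the growth-control kinase, was at 0.635 UMIs per 10000 in high-Ttr cells of R1 and 0.515 in R2, and had 2 UMIs in low-Ttr cells of R1 and 0 in R2. Its ratio in R1 was 0.166 (exact 95% counting interval 0.0200 to 0.600), with a log2 fold change of -3.85 ± 0.90 SE and an edgeR adjusted p of 0.000354. Eif4ebp1, a translation repressor that the mTOR kinase inactivates, was at 0.0373 and 0.0287 per 10000 in high-Ttr cells and at 0.789 and 0.329 in low-Ttr cells, from 15 and 3 UMIs (3.31 ± 1.03 SE, edgeR adjusted p = 0.0155). Without the cells marked as another type, Mtor kept its call (edgeR adjusted p = 0.0021) and Eif4ebp1 did not (edgeR adjusted p = 0.245).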

How the data were processed

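The authors aligned reads to GRCm38 with Cell Ranger 1.2.0, per the submitters' processing notes, and deposited for each mouse unnormalized UMI counts for every gene in every cell. The labels and the paper name different versions of the 10x chemistry. Cells with at least 500 genes and at most 5% mitochondrial UMIs were kept, and the 4% with the highest score against artificial doublets were removed (scikit-learn 1.9.0). SoupX and DoubletFinder were not run. Kept cells held 24106569 and 27200024 UMIs in the high-Ttr sums and 190188 and 91115 in the low-Ttr sums, so low members have wide counting intervals. Counts were summed over cells per mouse and group and tested with edgeR 4.0.16 (R 4.3.3), TMM, filterByExpr, glmQLFit and glmQLFTest, at a false discovery rate of 0.05 over all genes tested. DESeq2 1.42.0 was an alternative, and adjusted p-values it gave as NA (2229 genes, 9 of them members, in the Ttr comparison) were left as NA. Both sums of a mouse come from the same animal, so the mouse was a block. The fits were also run on counts simulated from a pooled profile with a common dispersion. Such counts do not carry the difference in composition between the real low- and high-Ttr sums, so no result here rests on them. Intervals and floors cover counting error only, and 0 counts were treated as allowing up to 3.

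The text names the 5 called members with the largest change in each direction and the same direction in both mice, the 6 most abundant members, the stalk genes, Rpsa, paralog pairs, genes beside the members and up to 4 genes of each related list. Others are said to be named after their values were seen. Results of some genes are not reported here. The members and lists were chosen with earlier results of these data known. Transcripts came from GENCODE M21 (the shortest protein-coding one of the consensus set) and promoters from RefSeq.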

Additional observations from a re-analysis of the deposited data

Results flagged for a closer look

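Cells over the mitochondrial limit entered no comparison, yet they held member UMIs. The members took 1.40% of UMIs in these 58 cells of R1 and 1.20% in the 28 cells of R2, below the high-Ttr cells that were kept (1.56% and 1.45%). Those among them with Ttr of at least 5% stood at 1.29% and 1.08%, and with no limit the difference between low- and high-Ttr cells was 1.53 points. Genes named as processed copies of members were left out by the rule and also carried UMIs, numbering 296 in R1 and 350 in R2 over high-Ttr cells, or 0.00123% and 0.00129% of all UMIs. In low-Ttr cells they had 5 and 3 UMIs.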

How the results depend on the processing

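The number of members called higher in low-Ttr cells moved by over 1.5 times from 5 under several settings, and by edgeR 0 were called lower under any except 1 (2, scaled to the summed members, which left the number higher at 4). It was 3 with DESeq2, 1 after subtraction of 10% ambient RNA, 1 with no filter on low counts, 8 with no replicate block, 9 against depth-matched cells, 32 with no TMM and 2 without cells marked as another type. Without the Pax6- or Dkk3-positive cells, 4 and 3 low-Ttr cells were left, all of them marked as another type, and 0 members were called. The other values of this setting thus describe only those cells. The median member log2 fold change (0.15) was 0.92 with no TMM, 0.50 against depth-matched cells, -0.093 when scaled to the summed members and -0.82 without the Pax6- or Dkk3-positive cells, and it was 0.11 without R1 and 0.37 without R2. The difference in summed share (1.54 points, mean of both mice) was 1.12 with the 20 most abundant genes left out and 2.58 without the Pax6- or Dkk3-positive cells, and it was 1.33 without R1 and 1.74 without R2. Between depth bins, 0 members were called by edgeR or DESeq2 under any setting, and the median (0.03) was 0.072 with no filter and -0.023 when scaled to the summed members, with 0.0075 without R1 and 0.041 without R2. The correlation of share and depth (0.109) ranged from 0.0811 to 0.137. Leaving out TMM raised the median of all genes from -0.39 to 0.37, and with that common shift Rpl13a (0.66) and Rplp1 (0.76), both near 0 with TMM, turned positive and were called. Rps4x was at -0.060 without the Pax6- or Dkk3-positive cells. In the Ttr comparison the named genes lost their call in 21 of 440 values, gained one in 13 and kept their side of the threshold in 403. A further 3 changed both sign and side. Values that were not called could change sign among the 403, as Rps14 did (0.14, and -0.09 when scaled to the summed members). Unless the construction shows it (fewer cells, another total), the cause was not tested. The mice pair the sums, since both sums of a mouse come from the same animal. The low-Ttr sums, with 58 and 19 cells, limit every member below about 1 UMI per 10000.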
